A study of Drosophila melanogaster with 46 samples.

Results

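The regions described here are the 500 most accessible of the 30774 regions at which ATAC-seq reads were counted in eye-antennal discs of Drosophila melanogaster. They were chosen by level: counts were divided by the library total to give CPM (counts scaled to a library of fixed size), put on a log2 scale with a prior count of 2, averaged over 31 libraries and ranked. The level of a member is therefore a description of the choice, not a finding, and no test is made on it. Eye-antennal discs are the larval epithelia that form the adult eye, antenna and head capsule, and they were dissected by hand from wandering larvae of the third instar. The larvae came from 23 lines of the DGRP, the Drosophila Genetic Reference Panel, whose strains were inbred from a wild population; the labels give these lines as the genotype, with no transgene or treatment beyond dissection. The series was made to find DNA variants that go with differences in accessibility between such strains. Of its 46 samples, 15 others, with reporter insertions, sorted cells or ChIPmentation for Grainyhead, were left out here.

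In the titles, 15 libraries have the ending IR, called the suffix below, and 16 lack it; no label explains it. In 8 lines there was 1 library with the suffix (replicate 2) and 1 without it (replicate 1), and in 15 lines there was a single library of either kind. No label says whether the libraries of a line came from separate dissections, so the p-values below rest on a spread between libraries that may be technical. Library totals ran from 1110755 to 12758783 counts, with a median of 6283136. The main axis of difference between libraries, the first principal component of 14887 regions above the median level that are not members, took 38.7% of their variance. It set DGRP_29651 and replicate 1 of DGRP_55031, DGRP_25208, DGRP_28265 and DGRP_29652 at its low end, with scores of -69.1 to -45.6, while the highest score was 36.6. The ratio of mean counts per region on X to those on the large autosomal arms, again over regions that are not members, ran from 0.732 to 1.11.

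In ATAC-seq the transposase Tn5 inserts adapters into DNA that is not wrapped in nucleosomes, so that promoters, enhancers and insulator sites in use appear as peaks of cut sites. In fly tissues the strongest peaks commonly lie at promoters of genes that most cells use, whereas an enhancer used by some cells of a disc gives a weaker peak in the bulk tissue. A disc holds several cell types, and a lower count in bulk tissue cannot tell fewer cells with an open site from less opening per cell. The files name each region by its position on the genome build dm3 alone, so whether a member lies at a promoter, in an intron or between genes was not determined here, and the tissue label could not be checked against marker genes. Regions are named by chromosome arm with start and end as deposited.

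The members made up 1.62% of all regions and 3.79% of the covered bases, and they held between 12.1% and 15.7% of the counts of a library, with a median of 14.2%. The next 500 regions in rank held 7.61% to 9.72%, with a median of 8.75%. Mean levels of members ran from 7.64 to 9.19 log2 CPM with a median of 7.99, against a median of 3.74 over all regions. On the linear scale the members averaged 200 to 589 CPM with a median of 257, and the median region of the whole table averaged 14.2 CPM. The scale falls off smoothly at the edge of the set. The last member inside, 3R:23406879-23408149, had a mean of 7.64 log2 CPM and an SD of 0.144, and 3L:17583383-17584386 just before it had an SD of 0.206 at the same rounded mean. The nearest regions outside, 2L:11967990-11968705 and 2R:2434542-2435420, also had means of 7.64 log2 CPM.

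The strongest member was 3R:18018366-18021760, which at 3395 bp was also the longest region of the table. Its level was 8.71 log2 CPM in the lowest library, DGRP_29651, 9.24 in the median library and 9.57 in the highest, DGRP_28206. Its level had a correlation of 0.65 with the first principal component over the libraries. Next came 2R:2122786-2123918, a region of 1133 bp, with 8.80 in the lowest library, 9.13 in the median and 9.50 in the highest. At 2L:160389-162281, the next in rank, the lowest library had 8.55, the median 9.12 and the highest 9.63 log2 CPM. The top 10 were completed by 2L:12006850-12007764, 2R:18821142-18822641, 2L:12005428-12006712, X:1292434-1294361, 2R:17590081-17590904, X:2030370-2032785 and 2L:2202049-2203678. Each of these 10 regions averaged between 515 and 589 CPM and was among the 500 strongest of all 31 libraries, with 132 the worst rank that any of them took in a library. Together they took 0.479% to 0.609% of a library's counts. Their range between the lowest and the highest library was 1.52-fold to 2.22-fold, so the order among them is finer than their spread over libraries.

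Members were long. Their lengths ran from 467 to 3395 bp with a median of 1244 bp, against a median of 1051 bp in the next 500 regions and 456 bp over all regions. A length of 1000 bp or more was reached by 360 members (72.0%), against 56.2% of the next 500 and 9.67% of all regions. After 3R:18018366-18021760 the longest were 2R:7251805-7255161 at 3357 bp and 2R:13307465-13310185 at 2721 bp. The shortest were 2R:17593371-17593837 at 467 bp, X:8699700-8700274 at 575 bp and 3R:16605651-16606256 at 606 bp. A count per region grows with the length of the region, and the rule did not divide by it. Over all regions the rank correlation of level with length was 0.79, and within the members it was 0.29. These are correlations across regions of the same libraries, which are not independent replicates.

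**Figure D1:**
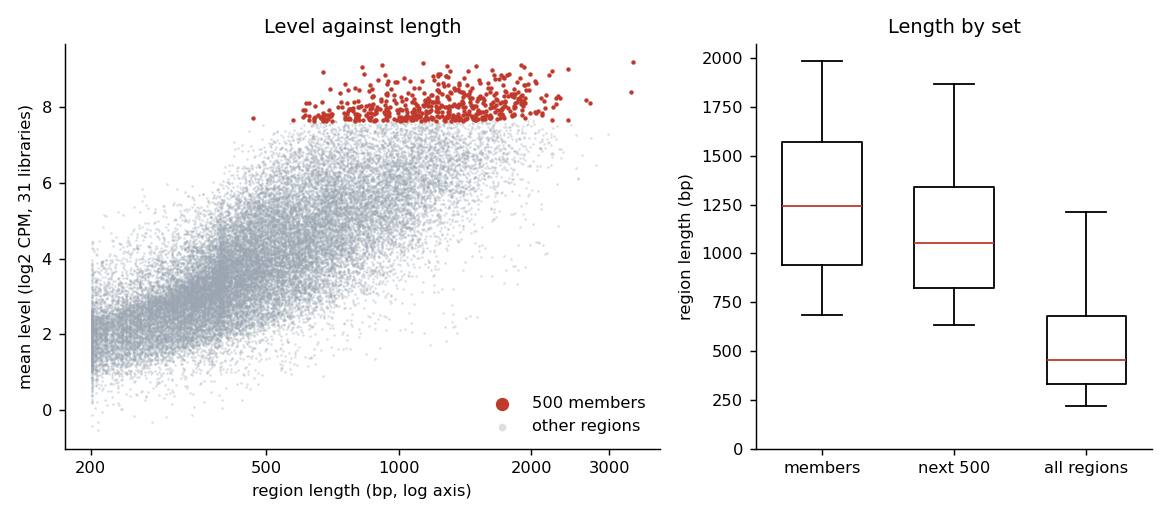
Left, mean level over 31 libraries (log2 CPM) against region length (bp, log axis), with the 500 members in red and all other regions in grey. Right, region length (bp) of the members, the next 500 regions and all regions, with boxes for the middle 50%, a red median line and whiskers from the 5th to the 95th percentile; the medians are 1244, 1051 and 456 bp.

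Length did not by itself place a region among the members. Of the 627 regions of 1500 bp or more, 149 were members (23.8%), and of the 500 longest regions 127 were. Per kb of length the members held 86.0 to 733 CPM with a median of 217, against 163 in the next 500 and 30.4 over all regions. The densest was 2R:17591831-17592503, a region of 673 bp, at 733 CPM per kb, and the least dense was 3L:10968678-10971103, a region of 2426 bp, at 86.0 CPM per kb. Ranked by counts per kb instead of counts, the top 500 shared 265 regions with the members and had a median length of 767.5 bp. Both lists hold 500 regions, so the overlap is the same share of each.

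By chromosome arm, 2L held 104 members, 2R held 102, 3L held 91, 3R held 130, chromosome 4 held 3 and X held 70. X held 14.0% of the members and 17.7% of all regions, while 3R held 26.0% of the members and 23.3% of all regions. The median level differed little by arm among members, from 7.78 log2 CPM on chromosome 4 to 8.01 on 2R. Members on X were longer, with a median of 1407.5 bp, against 1221.5 bp for those on autosomes. The strongest of the 3 on chromosome 4 was 4:527411-529448 at rank 43, with levels between 8.26 and 9.30 log2 CPM.

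Members lay close to each other. The median distance from a member to the nearest other member on its arm was 42624 bp, against 61400.5 bp among the next 500 regions, a set of the same size. Within 5000 bp of another member lay 93 members (18.6%), against 57 (11.4%) in the next 500, and 9 runs held 3 or more members with gaps of at most 5000 bp, against 2 such runs in the next 500. The densest stretches of 1 Mb were the first on 2L with 15 members, from 3R:12033709 on with 14 members, and from X:1168935 on with 12.

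The largest run held 6 members in 11240 bp on 2L, from 12003029 to 12014268, and included the regions ranked 4, 6 and 17. These neighbours did not move together in every case. At 2L:12010072-12011323 and 2L:12011395-12012633, 71 bp apart, levels over the 31 libraries had a correlation of 0.84. At 2L:12011395-12012633 and 2L:12013277-12014268, 643 bp apart, it was -0.26. Levels in the last of these ran from 8.01 to 9.14 log2 CPM, and those in 2L:12006850-12007764, at rank 4, from 8.83 to 9.43.

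With gaps of up to 50000 bp allowed, the largest run was on 3R, where 11 members lay between 12033709 and 12143050. Its strongest region was 3R:12075320-12076519 at rank 37, with 8.22 log2 CPM in the lowest library and 9.26 in the highest. Within it, 3R:12078637-12079280 and 3R:12079480-12080245 are 199 bp apart and had a correlation of 0.94 over the libraries, and both had lower fitted levels at the low end of the first principal component, by 0.76 and 0.72 log2 units. The next region, 3R:12080532-12081341, 286 bp further on, had a correlation of -0.06 with its neighbour. Its fitted level was higher at that end, and its lowest libraries were replicate 2 of DGRP_55031 at 6.94 log2 CPM and replicate 1 of DGRP_28260 at 6.95, and its highest were replicate 1 of DGRP_28265 at 8.50 and replicate 2 of DGRP_28260 at 8.54. The libraries of DGRP_28260 thus stood at opposite ends, and the SD within lines was 0.62 log2 units. Over the 17 pairs of adjacent members at most 1000 bp apart, the median correlation was 0.80, with a range of -0.26 to 0.94. Members on different arms had a median correlation of 0.13, and the 6 such close pairs in the next 500 had a median of 0.42. All of these correlations are over the same 31 libraries and share the first principal component.

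Levels of most members were steady over the libraries. The SD of log2 CPM over 31 libraries had a median of 0.24 among members and ran from 0.091 to 0.54, against a median of 0.24 in the next 500 and 0.45 over all regions. Counting error was much smaller: the SD that counting alone gives had a median of 0.041 among members, and all 500 exceeded 2 times their own counting SD. The ratio of the highest to the lowest library had a median of 1.93-fold. It stayed under 2-fold in 279 members (55.8%), against 52.6% of the next 500 and 10.9% of all regions, whose counts are lower and noisier. A range of 4-fold or more was seen in 3 members (0.6%), against 45.6% of all regions.

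**Figure D2:**
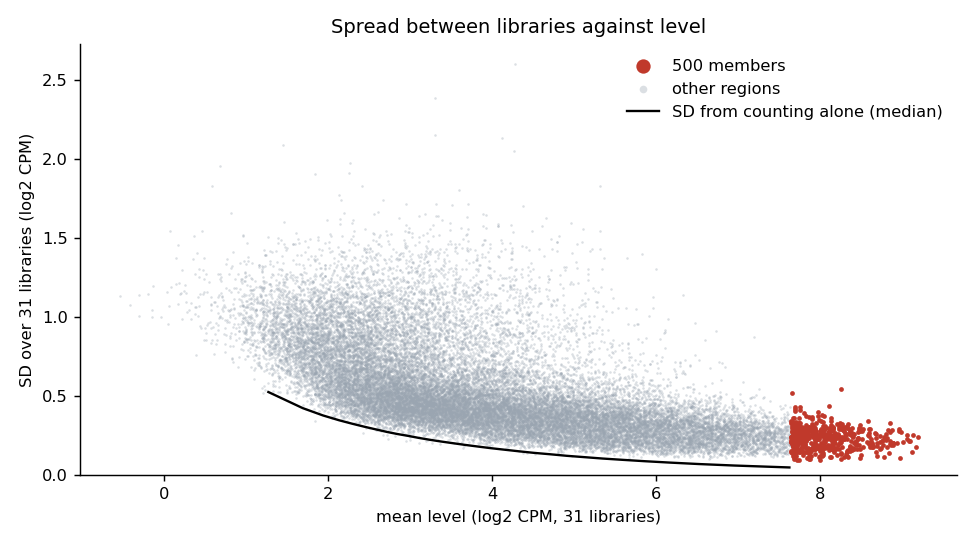
SD of log2 CPM over the 31 libraries against the mean level (log2 CPM), with members in red, other regions in grey and, as a black line, the median SD that counting error alone would give at each level. The members have a median SD of 0.24 and lie above a counting SD of 0.041, and their spread is like that of the regions just below them.

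The steadiest member was 3R:22975579-22977006, with 7.53 log2 CPM in the lowest library, 7.73 in the median and 7.92 in the highest. At 2R:12914050-12915613 the lowest was 7.55, the median 7.75 and the highest 7.88. The other members of the 5 with the smallest SD were 3L:13106844-13107570, 2L:19575041-19575796 and 3L:22734281-22735815. All 5 stayed within a 1.26-fold to 1.33-fold range, with SDs of 0.091 to 0.101 against counting SDs of 0.040 to 0.045. In all, 47 members kept within a 1.5-fold range.

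The libraries were also ranked singly on the levels whose mean chose the members, so that a high share of members in each is set by the rule. In these rankings 176 members were in the top 500 of all 31 libraries, 461 were in the top 500 of at least 16, and the member found least often was there in 10. A single library had between 361 members in its own top 500, in DGRP_29651, and 446, in DGRP_28222, with a median of 416. The worst rank that any member took in any library was 3444, and 382 members never fell below rank 1000. Conversely, 628 regions that are not members reached the top 500 of some library, but only 1 did so in at least 16. The lowest count of any member in any library was 107, in the shallowest library, and 324 in the others. Whether depth bears on the spread of members was not tested.

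The spread that remained was as large between the 2 libraries of a line as between lines. The SD within lines, from the 8 lines with 2 libraries, had a median of 0.25 among members, against a median of 0.20 for the SD of the 23 line means, and it was the larger value in 347 of 500 members. Each of the 8 pairs holds a library with the suffix and one without it, so the SD within lines includes any suffix difference. Line means of those 8 lines average 2 libraries while the others rest on 1. Deviations from the mean of all libraries, compared over the 500 members between the libraries of a line, had correlations from -0.41 in DGRP_28260 to 0.18 in DGRP_28262. In DGRP_25208 8 members differed by more than 2-fold between its libraries, and in DGRP_28123 and DGRP_28275 none did.

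A few libraries set many of the extremes. DGRP_29651 was the lowest library at 78 members, replicate 1 of DGRP_55031 at 65, replicate 1 of DGRP_28265 at 56 and replicate 1 of DGRP_25208, the shallowest, at 55, which comes to 254 of the 500. Replicate 1 of DGRP_28262 was the highest at 75, replicate 2 of DGRP_25208 at 66, replicate 2 of DGRP_29652 at 64 and DGRP_25199 at 36, together 241. In DGRP_29651 56 members lay more than 1.5-fold away from their mean over libraries, in replicate 1 of DGRP_55031 48 did, and in DGRP_28224 none did, with a median of 6 per library.

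The 4 libraries most often lowest were among the 5 with the lowest scores on the first principal component, while the fifth, replicate 1 of DGRP_29652, was lowest at only 9 members. Of the 4 most often highest, replicate 2 of DGRP_25208 had the top score of 36.6, and the rest scored 24.9 to 28.3. The share of counts in members had a Pearson correlation of 0.80 and a Spearman correlation of 0.78 with the component over 31 libraries, and 0.73 (Pearson) without the 2 libraries farthest from its median. The share in the next 500 regions had a Pearson correlation of 0.89 with it. No p is given, since the share is a sum over chosen members. Between the libraries at the low and the high end of the component, a linear fit put 364 members higher at the high end and 136 lower, with a median log2 change of 0.32. In the next 500 regions it put 368 higher and 132 lower, with a median of 0.31, and over all regions 16814 higher and 13960 lower, with a median of 0.07. Only 1 member (0.2%), 3R:12080532-12081341, was lower by 2-fold or more at the high end, with a fitted log2 change of -1.03. In the next 500 regions 0.6% were, and 23.6% of all regions. No member was higher by 2-fold or more, against 0.2% of the next 500 and 1.24% of all regions. With the component removed, the median SD of members was 0.18.

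**Figure D3:**
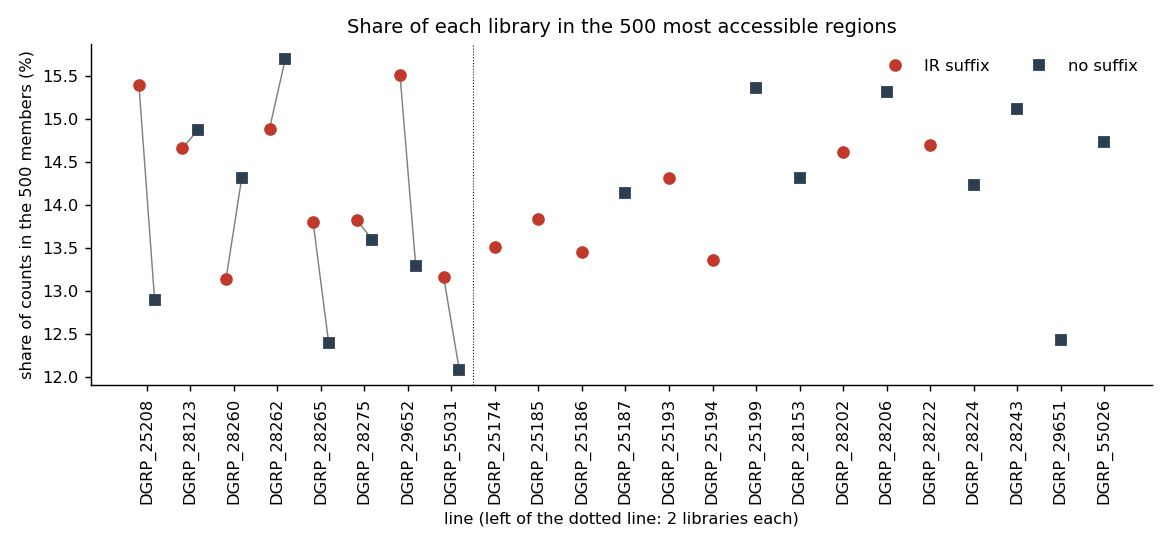
Share of each library's counts that lies in the 500 members (%), by line, with circles for libraries with the IR suffix and squares for those without, and grey lines that join libraries of a line; the axis does not start at 0. The shares run from 12.1% to 15.7%, and in 5 of the 8 lines with both kinds the library with the suffix is higher.

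Members on X moved apart from those on autosomes. The median deviation of the 70 X members minus the median of the 430 autosomal members was lowest in replicate 1 of DGRP_28262, at -0.43 log2 units. It was highest in replicate 1 of DGRP_29652, at 0.32. It followed the X to autosome ratio of the regions that are not members, with a Pearson correlation of 0.92 and a Spearman correlation of 0.89, and 0.90 (Pearson) without the 2 farthest libraries. The median SD was 0.25 for X members and 0.24 for autosomal members. What part the ratio has in the differences below was not tested beyond the fit that takes it as a covariate.

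Whether members differ between lines was tested with edgeR's quasi-likelihood F-test over the whole table, with all line coefficients together. None of the 500 members passed an adjusted p of 0.05, where 0.0942% of all tested regions did (29 of 30773). At an unadjusted p of 0.05, 5 members passed (1.0%), against 7.68% of all tested regions. These counts moved with single libraries: leaving out 1 of the 16 libraries of the 8 lines at a time gave 1 member (without replicate 1 of DGRP_55031) to 13 (without replicate 2 of DGRP_25208) at that unadjusted p, and 0 to 41 regions called over the whole table. DESeq2 called 8 members (1.6%), against 5.51% of all. Limma voom called 0 members and 10 regions over the whole table, with 8 members (1.6%) at an unadjusted p of 0.05. For limma voom and the fits that left out a library, the share of all regions at that unadjusted p is not given. With the first principal component as a covariate edgeR called 12 members (2.4%), against 10.5% of all. The share of regions with an unadjusted p under 0.05 was 2.6% in the next 500 and 9.37% in the 10774 lowest-ranked regions. Its 7 residual degrees of freedom come only from the 8 lines that have a second library.

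**Figure D4:**
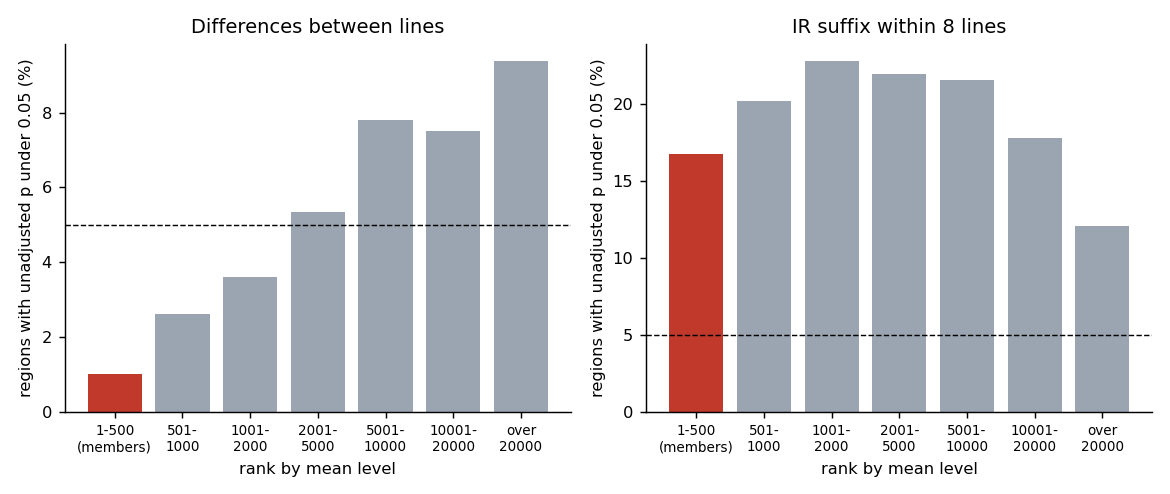
Percentage of regions with an unadjusted edgeR p under 0.05, by rank of mean level, for differences between 23 lines (left) and for the IR suffix within 8 lines (right), with members in red and a dashed line at 5%. Members stand at 1.0% on the left and 16.8% on the right, against 7.68% and 17% of all tested regions.

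The smallest p between lines belonged to 2R:3132799-3134674, at rank 135, which also had the largest SD and the widest range of all members. Its unadjusted p was 0.0026, with an adjusted p of 0.18 in edgeR's quasi-likelihood test. DGRP_25174 had 9.83 log2 CPM, DGRP_25193 9.22, replicate 2 of DGRP_28123 9.13, DGRP_28202 9.11, replicate 1 of DGRP_28123 8.94 and DGRP_28153 8.94. The other 25 libraries lay between 7.38, in DGRP_29651, and 8.34, in DGRP_28243. Thus 6 libraries of 5 lines stood above a gap of 0.60 log2 units, and both libraries of DGRP_28123 were among them. The range was 5.44-fold, and 3.57-fold without DGRP_25174. The fitted log2 change along the first principal component was 0.64, with a correlation of 0.37 over libraries. DESeq2 gave it an adjusted p of 1.79e-12, and edgeR with the first principal component as a covariate an adjusted p of 7.48e-06.

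The regions beside it were also high in DGRP_25174. At 2R:3136216-3136855, 1541 bp away, that library lay 1.74 log2 units above the mean over libraries, and at 2R:3128390-3129121, 3677 bp away, 1.91 units above, in both cases the highest of 31. The other high libraries lay nearer the mean. At 2R:3136216-3136855 DGRP_25193 was 0.39 from it, replicate 2 of DGRP_28123 0.18, DGRP_28202 0.18, replicate 1 of DGRP_28123 -0.49 and DGRP_28153 -0.58. At 2R:3128390-3129121 DGRP_28153 was 0.52 from it and the third of the 31 libraries, DGRP_25193 0.38, replicate 1 of DGRP_28123 -0.27, replicate 2 of DGRP_28123 -0.34 and DGRP_28202 -0.70.

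Of the other members with a range of 4-fold or more, 3L:18233526-18234141 was low in a single library. DGRP_25194 had 6.28 log2 CPM there (77.7 CPM, from 623 counts), while the other 30 libraries lay between 7.63 and 8.68. Without DGRP_25194 the range fell to 2.07-fold, against 5.26-fold with it. At the region 634 bp before it, 3L:18232488-18232891, DGRP_25194 was 0.03 log2 units from the mean, and at 3L:18234369-18234711, 227 bp after it, -0.76, the lowest of the 31 libraries. The log2 difference of DGRP_25194 from the mean of the other 22 lines was -2.02 in the edgeR fit (unadjusted p = 0.00028, adjusted p = 0.14). There is 1 library of this line, so its low value has no replicate.

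A like case was 2R:18563559-18564786, which is named here because of its values. DGRP_28202 had 6.66 log2 CPM (100 CPM, from 661 counts), and the other 30 libraries lay between 7.78 and 8.65. Its range was 4.0-fold with that library and 1.83-fold without it. The neighbouring member 2R:18565571-18566217, 784 bp away, was -0.14 log2 units from its mean in DGRP_28202. The edgeR log2 difference of this line from the other 22 was -1.54 (unadjusted p = 0.00066, adjusted p = 0.28), again from a single library. In the test of all lines together with the first principal component as a covariate, edgeR gave this member an adjusted p of 0.022. DESeq2 did not call it between lines.

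The third member with a range over 4-fold, 2L:11023100-11024598 at rank 482, varied by degrees. Replicate 2 of DGRP_28265 had the lowest level, 6.45 log2 CPM, the median library had 7.64 and replicate 1 of DGRP_28262 the highest, 8.79. The largest gap between neighbouring libraries was 0.45 log2 units, below which only the lowest library lay. Its SD of 0.52 compares with an SD within lines of 0.34, and its adjusted p between lines was 0.61 in edgeR and 0.0013 in DESeq2.

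The remaining 7 of the 10 members with the largest SD, with SDs from 0.39 to 0.43, had ranges between 2.82-fold and 3.59-fold. They were 3R:12080532-12081341, 3R:23042967-23044060, 3L:2084527-2086200, 3R:12078637-12079280, 3L:22143971-22145440, 3R:1937797-1938877 and 3R:15111689-15112796. At 3R:23042967-23044060 the lowest library was replicate 1 of DGRP_25208 at 7.03 log2 CPM and the highest replicate 1 of DGRP_28262 at 8.64. At 3R:1937797-1938877 replicate 1 of DGRP_28275 stood alone at 6.80, below 7.29 in the next. All 10 were on autosomes, at ranks from 135 to 482, and replicate 1 of DGRP_28262 was the highest library at 5 of them.

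**Figure D5:**
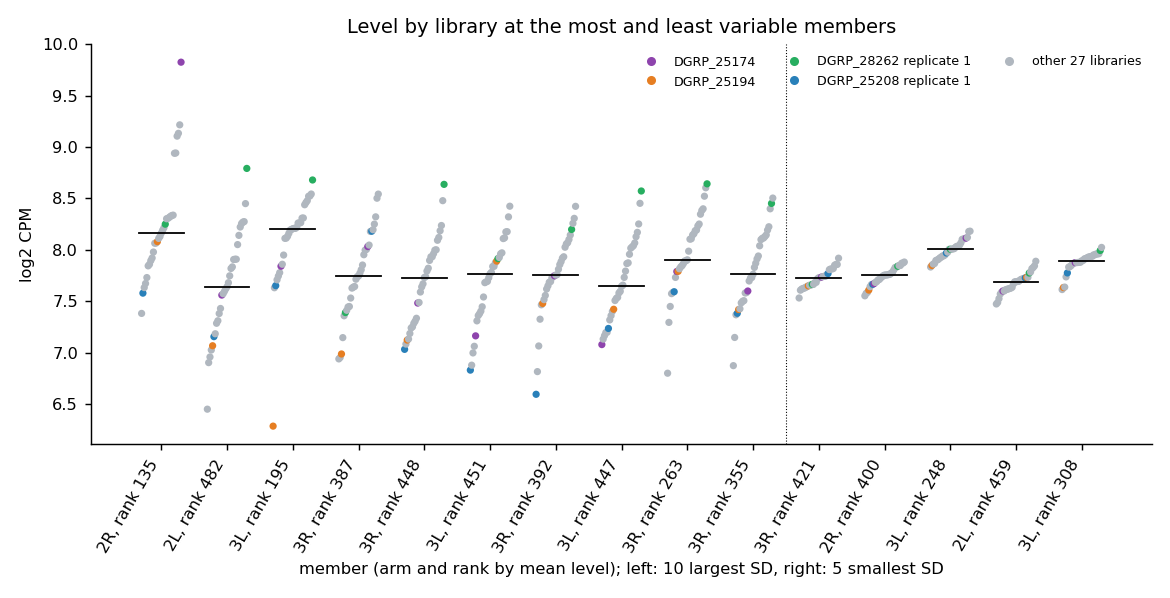
Level (log2 CPM) in each of the 31 libraries at the 10 members with the largest SD (left of the dotted line) and the 5 with the smallest SD (right), each labelled by arm and rank, with libraries in rising order and a bar at the median; 4 libraries are coloured. DGRP_25174 stands at 9.83 in the member ranked 135 and DGRP_25194 at 6.28 in the member ranked 195, while the 5 steadiest members keep within 1.33-fold.

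DESeq2 and the fit with the first principal component shared 5 of the members they called between lines. Besides 2R:3132799-3134674 and 3L:18233526-18234141 these were 3L:10768818-10770004, X:9587693-9588358 and X:12097356-12098105. At 3L:10768818-10770004 both libraries of DGRP_55031 and replicate 2 of DGRP_28260 lay between 6.94 and 6.98 log2 CPM, below the other 28 libraries, which lay between 7.40 and 8.21.

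A further test took each line in turn against the mean of the remaining 22. No member passed an adjusted p of 0.05 in any line by edgeR, against 2.78% of all tested regions, and 177 members (35.4%) had an unadjusted p under 0.05 in some line, against 53.4% of all. With the first principal component as a covariate 45 members passed (9.0%), against 17.4% of all. Of these members, 25 were higher in the line (5.0%, against 13.8% of all) and 20 lower (4.0%, against 6.26% of all). Scaling to library totals alone gave 2 members, against 3.21% of all, and leaving out replicate 1 of DGRP_28260 gave 1, against 2.93% of all. A minimum mean count of 50 gave 1, against 2.35% of all.

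The IR suffix was compared within the 8 lines that have a library of each kind, with the line as a block. The share of counts in members was 14.3% ± 0.94 with the suffix and 13.6% ± 1.24 without it (SD, n = 8 each), and it was higher with the suffix in 5 of 8 lines. The mean difference of 0.66 percentage points was smaller than its SD of 1.36. By edgeR's quasi-likelihood test no member passed an adjusted p of 0.05, where 0.0293% of all tested regions did (9 of 30710). At an unadjusted p of 0.05, 84 members passed (16.8%), against 17% of all, a share near that of the whole table. Leaving out 1 library at a time gave 46 members (without replicate 1 of DGRP_29652) to 127 (without replicate 1 of DGRP_28260), and 1 to 3 regions called over the whole table. Of the 84 members in the fit with no library left out, 68 were higher with the suffix (13.6%, against 9.56% of all) and 16 lower (3.2%, against 7.46%). In the next 500 regions in rank, 85 were higher and 16 lower at that unadjusted p, so this tilt was not particular to members. The fitted log2 difference had a median of 0.07 over all members, 0.09 over autosomal members and -0.06 over X members. Of the 70 X members, 9 had an unadjusted p under 0.05, and all 9 were lower with the suffix. Of the 65 X regions among those next in rank, 9 also had such a p, 7 of them lower and 2 higher. The share over all X regions is not given.

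DESeq2 called 17 members for the suffix (3.4%, against 3.48% of all). Of these, 12 were higher (2.4%, against 2.54% of all) and 5 lower (1.0%, against 0.948% of all). With the first principal component as a covariate edgeR called 21 (4.2%, against 4.31% of all). Of these, 5 were higher (1.0%, against 1.75% of all) and 16 lower (3.2%, against 2.57% of all). Without the line as a block, edgeR called 1 member in the same 16 libraries (0.2%, against 0.462% of all). In all 31 libraries it called 41 (8.2%, against 12% of all). Limma voom called 0 members and 9 regions over the whole table, with 91 members (18.2%) at an unadjusted p of 0.05. For limma voom and the fits that left out a library, the share of all regions at that unadjusted p is not given. The component moves with the suffix in several lines: its score was 36.6 with the suffix and -51.6 without it in DGRP_25208, 26.7 and -51.5 in DGRP_28265, 28.3 and -45.6 in DGRP_29652 and 24.8 and -62.9 in DGRP_55031, but -35.3 and 30.1 in DGRP_28260. Its part in the suffix differences cannot be told apart in those 4 lines from that of the suffix.

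Some members with a small p for the suffix are given as values, since none passed the adjusted threshold in edgeR's test without the component. DESeq2 and the fit with the component both called 6 members, of which 3 are described below. The others were 3L:19628174-19629179 and 3L:18178578-18179572, higher with the suffix in 8 of 8 lines, and X:3301497-3303408, higher in 0 of 8. Their unadjusted edgeR p (0.0014, 0.0017 and 0.0023) was smaller than that of X:1292434-1294361 (0.0034). 2L:223780-225578 averaged 8.10 log2 CPM with the suffix and 8.58 without it, with a fitted log2 difference of -0.48 (SE of the paired differences 0.0995, n = 8 pairs), higher in 1 of 8 lines, at an edgeR adjusted p of 0.10. Its adjusted p was 0.0012 in DESeq2 and 0.019 in edgeR with the component. 3R:12105662-12107592, in the run of 11 members on 3R, averaged 8.84 with the suffix and 8.26 without it, with a fitted log2 difference of 0.58 (SE 0.11), higher in 8 of 8 lines, at an edgeR adjusted p of 0.11. Its adjusted p was 0.0041 in DESeq2 and 0.017 in edgeR with the component, where the difference was 0.43, and its fitted change along the component was 0.72. X:1292434-1294361, at rank 7 the strongest member on X, averaged 8.87 with the suffix and 9.21 without it, and was higher with the suffix in 0 of 8 lines, at an edgeR adjusted p of 0.14. Its adjusted p was 0.029 in DESeq2 and 0.019 in edgeR with the component. All 11 members of the run on 3R had a fitted log2 difference above 0, with a median of 0.36. Of these 11, 6 had an unadjusted edgeR p under 0.05, as had 16.8% of all members and 17% of all tested regions. Neighbouring regions share their libraries and are not separate tests. In the run of 7 members on X between 1455940 and 1511716, the fitted log2 difference was above 0 in none, with a median of -0.20. Only 1 of these 7 had an unadjusted edgeR p under 0.05. Other large runs held both signs. On 2L from 11970785 on, 5 of 7 members were above 0, with 0 under that p. On 2L from 2130084 on it was 5 of 6, with 1 under it, and on 2R from 14194312 on 3 of 6, with 0. The median deviation of X members minus the median of autosomal members was -0.24 log2 units with the suffix and 0.22 without it in DGRP_28265. In DGRP_29652 it was -0.15 with the suffix and 0.32 without it. With the X to autosome ratio of each library as a covariate in the suffix fit, edgeR called 0 members. Over the whole table it called 1 region, against 9 without the ratio. An unadjusted p under 0.05 was seen in 64 members with the ratio and 84 without it. The share of all regions at that p is not given for the fit with the ratio, so this fall cannot be set against the whole table.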

How the data were processed

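ATAC-seq counts of 31 libraries from 23 DGRP lines were used, as whole-number counts per region over 1 merged set of 30774 regions, which the authors deposited. Per the submitters' processing notes Bowtie2, MACS2, featureCounts and DESeq2 were used on dm3; the sources used here give no versions and do not say how duplicates, multiply mapped reads or the transposase offset were handled, which can move counts in repeats or at region edges. Every column matched a sample by its title. Libraries were grouped by line and suffix, and the shared line pairs libraries within the 8 lines that have both kinds. Correlations of deviations within those pairs are given above.

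Log2 CPM used a prior count of 2 and library totals. Tests used edgeR 4.0.16 in R 4.3.3 with TMM, robust quasi-likelihood F-tests and Benjamini-Hochberg adjustment over all regions that reached, in 2 or more libraries, the CPM that 10 counts have in a library of median size; all 500 members passed. The line model had a suffix term, and the suffix model the line as a block. Lines with a single library take their spread from the 8 lines with 2. DESeq2 1.42.0 and limma 3.58.1 were alternatives. The tests were tried on simulated data. Descriptions used Python 3.11.15 with numpy 2.4.6, scipy 1.17.1 and pandas 2.3.3.

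The members, rules and alternatives were chosen with earlier results of these data known. Regions named are the 10 highest, the 10 with the largest and 5 with the smallest SD, the 3 longest and 3 shortest, those at the edge of the set, and those called or with the smallest p; others are named after their values, or those of their neighbours, were seen. No genome of this build was used, so no sequence or gene is given.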

Additional observations from a re-analysis of the deposited data

Results flagged for a closer look

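At 68 sets of 8 libraries (32 members chosen by level, SD, length or place at the edge of the set and the 2 regions just outside it, each with and without the suffix in the lines that have both), 2 had a library that stood apart from the other 7 by more than Dixon's 95% limit for 8 values. Chance flags about 1 set in 20. At 2R:3132799-3134674 replicate 2 of DGRP_28123 had 9.13 log2 CPM with the suffix, the next library 8.33 and the median of the 8 was 8.16; replicate 1 of that line, without the suffix, had 8.94. At 3R:18018366-18021760 replicate 2 of DGRP_28260 had 8.79 log2 CPM with the suffix, the next library 9.15 and the median was 9.26.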

How the results depend on the processing

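Between lines the count of members called by edgeR was 0. It became 12 (2.4%, against 10.5% of all tested regions) with the first principal component as a covariate and 8 (1.6%, against 5.51%) with DESeq2. For 1 line against the other 22 it was 0 and became 45 (9.0%, against 17.4% of all) with that covariate. It was 2 (0.4%, against 3.21%) with library totals only and 1 (0.2%, against 2.35%) with a minimum mean count of 50. For the suffix, with the line as a replicate block, it was 0. It became 21 (4.2%, against 4.31% of all) with that covariate and 17 (3.4%, against 3.48%) with DESeq2. With no replicate block it was 1 (0.2%, against 0.462%) in the same 16 libraries and 41 (8.2%, against 12%) in all 31. Leaving out 1 library at a time gave 0 to 0 members between lines, 0 to 0 for the suffix and 0 to 1 for 1 line, the 1 being without replicate 1 of DGRP_28260. The cause of these changes was not tested. The other alternatives tried, among them DESeq2 size factors, no filter on low counts, a covariate for the X to autosome ratio and, for lines and the suffix, limma voom, left these counts at 0. DESeq2 and limma voom were not run for 1 line against the other 22. The line comparison without the suffix term or in the 16 libraries alone also gave 0. Of the 500 members 265 remained when counts were ranked per kb, and 487 to 500 with another prior count, the median or TMM-scaled totals; leaving out 1 library kept 495 to 499. The median SD of members was 0.28 with TMM-scaled totals, 0.18 with the component removed and 0.24 on autosomes. TMM moved library sizes by -0.13 to 0.14 on the log2 scale. With 7 residual degrees of freedom and an SD within lines near 0.25, a count of 0 does not show that members are alike between lines.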
